A study of Mus musculus with 2 samples.

Results

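Among single-cell barcodes of a mouse melanoma experiment, 271 held little RNA of the classical pigment-cell genes and almost none of lung epithelium. They were chosen by their counts: at least 200 genes, at least 500 unique molecular identifiers (UMIs, each standing for 1 captured RNA molecule) and at most 25% mitochondrially encoded UMIs. In addition, Pmel, Mlana, Dct and Tyrp1 together made up at most 0.2% of their UMIs, and 8 alveolar and airway genes (Sftpc, Sftpb, Sftpa1, Sftpd, Lamp3, Cldn18, Ager and Scgb1a1) summed to fewer than 3 UMIs. Of 15961 barcodes in the RNA matrix, 15635 were within the quality limits, and the 271 members were 1.73% of them (exact 95% interval 1.53 to 1.95%). The members are compared below with 15302 melanoma-rich barcodes, which passed the same limits but lay above 0.2% melanoma UMIs, and 62 epithelial barcodes with 3 or more epithelial UMIs serve as a further point of comparison.

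The barcodes came from GFP-positive, CD45-negative, DAPI-negative cells sorted out of tumours that the mouse melanoma line B16F10 had formed in Prf1-/- bone (crushed knees), Prf1-/- lung and wild-type (WT) lung. Prf1 encodes perforin, the pore-forming protein that cytotoxic T cells and natural killer cells use to kill targets. Knees were digested for 30 min and lungs for 20 min, so site and digestion time cannot be told apart, and how many mice each source stands for was not stated in the labels. Each source was marked with its own antibody-borne hashtag, and all were run together as 1 pool, which gave 1 RNA library and 1 hashtag library. There is thus no replicate check of any value below, no test was made, and intervals are exact 95% intervals that cover counting error only.

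Pigment cells and melanomas derived from them make melanin in melanosomes. Pmel forms the fibrils of that organelle, Tyr, Tyrp1 and Dct are its enzymes, Mlana is a membrane protein of it, and the transcription factors Mitf and Sox10 keep the programme on. ATF4, a transcription factor translated preferentially when amino acids run short or protein folding fails, induces genes of amino-acid synthesis and transport together with the transcription factor gene Ddit3. A sort on GFP and against CD45 is meant to leave tumour cells, but stromal cells of lung and bone, such as fibroblasts, endothelial cells and collagen-making osteoblasts, are also CD45-negative.

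ATF4 binds a composite element of a C/EBP and an ATF site, and 10 of the 13 compared genes of its pathway were called higher in the members than in melanoma-rich barcodes, where 5.36% of all compared genes were. The 250 bases before the start site of 4 such genes are shown because they hold the 8 letters TGATGNAA, a form of that element, on either strand, and the capitals mark these letters. The sequences are those of RefSeq on GRCm38.p6, read on the strand of each gene. They cover chr6:7693210-7693459 for Asns (minus strand), chr2:119350992-119351241 for Chac1 (plus strand), chr7:126625471-126625720 for Nupr1 (minus strand) and chr3:50443614-50443863 for Slc7a11 (minus strand).
Asns: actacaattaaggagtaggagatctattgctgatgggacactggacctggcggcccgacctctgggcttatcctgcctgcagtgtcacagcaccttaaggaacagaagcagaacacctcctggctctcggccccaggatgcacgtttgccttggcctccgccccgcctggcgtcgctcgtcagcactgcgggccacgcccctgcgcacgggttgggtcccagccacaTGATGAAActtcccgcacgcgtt
Chac1: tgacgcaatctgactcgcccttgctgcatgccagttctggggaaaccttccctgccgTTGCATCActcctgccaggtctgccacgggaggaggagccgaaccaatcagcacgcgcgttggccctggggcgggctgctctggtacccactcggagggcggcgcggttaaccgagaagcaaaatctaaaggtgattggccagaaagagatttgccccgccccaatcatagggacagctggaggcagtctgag
Nupr1: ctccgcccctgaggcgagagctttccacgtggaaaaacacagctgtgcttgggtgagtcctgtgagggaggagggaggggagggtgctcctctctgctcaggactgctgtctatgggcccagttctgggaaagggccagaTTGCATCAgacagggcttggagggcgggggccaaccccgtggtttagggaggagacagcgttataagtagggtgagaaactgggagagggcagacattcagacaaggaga
Slc7a11: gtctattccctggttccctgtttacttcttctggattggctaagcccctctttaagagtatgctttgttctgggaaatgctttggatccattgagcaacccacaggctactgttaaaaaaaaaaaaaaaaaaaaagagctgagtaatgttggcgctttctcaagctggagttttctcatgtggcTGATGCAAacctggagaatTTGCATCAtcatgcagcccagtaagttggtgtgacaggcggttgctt
In Slc7a11 the letters occurred 2 times, once on each strand, 66 to 59 and 47 to 40 bases before the start. They lay 23 to 16 bases before the start of Asns, 193 to 186 before that of Chac1 and 110 to 103 before that of Nupr1. All 14 genes of the ATF4 list had a promoter in the RefSeq table, 5 of them with the letters, and of the 10 list genes called higher in the members 4 had them. Of all 32851 promoters in that table, 1134 (3.45%) held the letters in the same window, and of the 17 promoters of the list 5 did. Counted by gene, 1056 of 27025 (3.91%) had a promoter with them. A match describes the sequence and is not a binding site.

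The members were shallower than the barcodes they were set against. They held 424189 UMIs in all, with a median of 1435 per barcode (range 506 to 5038) and 818 genes, while the melanoma-rich barcodes held 34543175 UMIs with a median of 2063.5 and 1112 genes. Mitochondrially encoded UMIs had medians of 2.11% in members and 2.41% in melanoma-rich barcodes. Members were 5.42% of barcodes with 500 to 1000 UMIs, 2.56% from 1000 to 1500, 1.63% from 1500 to 2000, 0.975% from 2000 to 3000 and 0.671% above. Below 1000 UMIs a barcode stays under 0.2% only with 1 melanoma UMI or none, so the rule depends on depth, and the comparison of all members with melanoma-rich barcodes was repeated among barcodes with 500 to 2000 UMIs. The comparisons between sources, the shares of each source and the clusters were not.

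By the rule, the 4 melanoma genes were low in the members. Their summed share had a median of 0.134% in members and 1.09% in melanoma-rich barcodes, and 43 members had no UMI of any of them. The limit ran through a continuous range: 105 members lay between 0.15 and 0.2%, and 116 barcodes just outside lay between 0.2 and 0.25%. The epithelial limit was sharper, since 265 members had no epithelial UMI, 6 had 1 and none had 2, while no barcode of low melanoma share had 3 or 4. It removed 42 of 313 barcodes with a low melanoma share.

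Most members carried other pigment-cell RNA. Of 20 melanocyte genes that the rule did not use, at least 3 different ones were found in 218 of 271 members (80.4%, 95% interval 75.2 to 85.0%) and in 99.0% of melanoma-rich barcodes. At least 1 was found in 265 members (97.8%), and 6 members had none, 4 of which carried markers of another cell type. After every barcode was thinned to 500 UMIs, 89.7% of members (85.4 to 93.0%) and 99.0% of melanoma-rich barcodes had at least 1. Epithelial barcodes stood at 87.1% (76.1 to 94.3%) at that depth, so the share of members did not differ from theirs beyond the intervals. Among epithelial barcodes 41.9% had at least 3 at a median of 689.5 UMIs, and 42 of these 62 had a melanoma share of at most 0.2%. The part of free RNA in these shares was not tested.

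The level of that list was lower in the members. Its genes summed to 5945 CPM (UMIs per 1000000 UMIs of the group) in members and 11412 CPM in melanoma-rich barcodes, a ratio of 0.52 (0.50 to 0.54), and epithelial barcodes stood at 7018 CPM. A gene counts as called where its CPM ratio was at least 1.5-fold in either direction and the interval of that ratio did not include 1. Genes with at least 10 UMIs over both groups and a mean of at least 5 CPM were compared. All 20 list genes were compared, 17 were lower and none was higher, with a median log2 ratio of -1.29, against 0.04 over all genes and a background of 3.82% of genes called lower. At 500 to 2000 UMIs the ratio was 0.48 (0.46 to 0.51).

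Sox10 and the cadherin gene Cdh19, both on in neural-crest-derived cells, did not fall below the call limit. Sox10 stood at 129.7 CPM in members and 128 CPM in melanoma-rich barcodes, a ratio of 1.02 (0.76 to 1.32). Cd63, a tetraspanin gene of lysosomes and melanosomes and the list's most abundant one, stood at 1877 CPM in members (235 of 271 barcodes) and 2417 CPM in melanoma-rich barcodes, and was not called. Mitf had 104 UMIs in 64 members, with 245 CPM in members and 423 CPM in melanoma-rich barcodes, a ratio of 0.58 (0.47 to 0.70). Tyr, the rate-limiting enzyme gene of melanin synthesis, had 34 UMIs in 27 members, with 80.2 CPM in members and 176 CPM in melanoma-rich barcodes (ratio 0.45, 0.31 to 0.64). Lower still were the melanosome transporter genes: Slc45a2 at 0.32 (0.25 to 0.41), Slc24a5 at 0.28 (0.20 to 0.37) and Oca2 at 0.10 (0.012 to 0.36, 2 UMIs). Trpm1, a Mitf target and channel gene, was at 0.22 (0.15 to 0.32), and Kcnj13, a potassium channel gene, at 0.11 (0.029 to 0.27, 4 UMIs). Melanosome transport genes were also low, with Mlph at 0.35 (0.22 to 0.53) and Rab27a at 0.16 (0.044 to 0.42, 4 UMIs). Apoe, Gpnmb and Ptgds, abundant in both groups, had ratios of 0.50 (0.45 to 0.55), 0.55 (0.49 to 0.61) and 0.36 (0.32 to 0.41).

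Few barcodes carried several markers of 1 other cell type. In all, 10 members (3.69%, 95% interval 1.78 to 6.68%) carried at least 3 different markers of 1 list of another cell type, a limit chosen after the values were seen, against 73 of 15302 melanoma-rich barcodes (0.477%). The Schwann and melanocyte lists did not count for this, while the alveolar and airway list did, and in the 10 members the lists were stromal, vascular, immune or blood ones. Of the 62 epithelial barcodes 51 passed the limit, and 50 of the 62 passed it on the alveolar and airway list. The 10 members are numbered here from 1 to 10.

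Barcodes 1, 2 and 3 (1108, 747 and 692 UMIs) carried genes of bone-forming osteoblasts. Bglap, which encodes osteocalcin, the matrix protein of mature osteoblasts, had 167, 117 and 59 UMIs in them and none in any other member. Col1a1 and Col1a2, the chains of type I collagen, had 93, 63 and 124 and then 95, 54 and 69 UMIs. Bglap2 had 41, 29 and 26 UMIs, Sparc, a bone and matrix glycoprotein gene, 51, 45 and 23, and Ibsp, bone sialoprotein, 10, 3 and 0. None of the 3 had a UMI of the 4 rule melanoma genes, they held at most 2 UMIs of the other melanocyte genes, and none was listed in the hashtag matrix, so no source could be given.

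Col1a1, the marker given with the rule, was thus found in 4 of 271 members (1.48%, 0.404 to 3.74%), with 124, 93, 63 and 3 UMIs. In melanoma-rich barcodes it was found in 0.176%, with up to 136 UMIs in 1 barcode. The 4 members with Col1a1 do not stand for the other 267.

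Barcode 4 (545 UMIs, WT lung) carried Mgp, the matrix Gla protein gene of lung and vessel stroma, at 79 UMIs, with 3 UMIs each of Inmt, Gsn and Col1a1. Barcode 5 (514 UMIs, Prf1-/- bone) carried the monocyte genes Lyz2 (8 UMIs) and Ly6c2 (3 UMIs) and the leukocyte gene Cd52 (2 UMIs). Barcodes 6 and 7 (1057 and 740 UMIs, not listed) carried granule genes of granulocyte precursors, Elane with 6 and 7, Mpo with 4 and 4 and Prtn3 with 10 and 4 UMIs. Elane had 13 UMIs in members and 0 in melanoma-rich barcodes, where a floor of 3 UMIs equals 0.0868 CPM. Barcodes 4 to 7 had at most 2 UMIs of melanocyte genes outside the rule.

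The remaining 3 also carried pigment-cell genes. Barcodes 8 and 9 (1973 and 1402 UMIs) had 13 and 10 UMIs of the beta-globin gene Hbb-bs beside 5 and 4 different melanocyte genes. Barcode 10 (2694 UMIs) had 2 UMIs of Egfl7 and 1 each of Eng and Ramp2, vascular genes that stood at 18.3, 67.3 and 57.1 CPM in melanoma-rich barcodes as well, beside 8 different melanocyte genes. The grid of UMIs per barcode shows these kinds side by side.

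**Figure D1:**
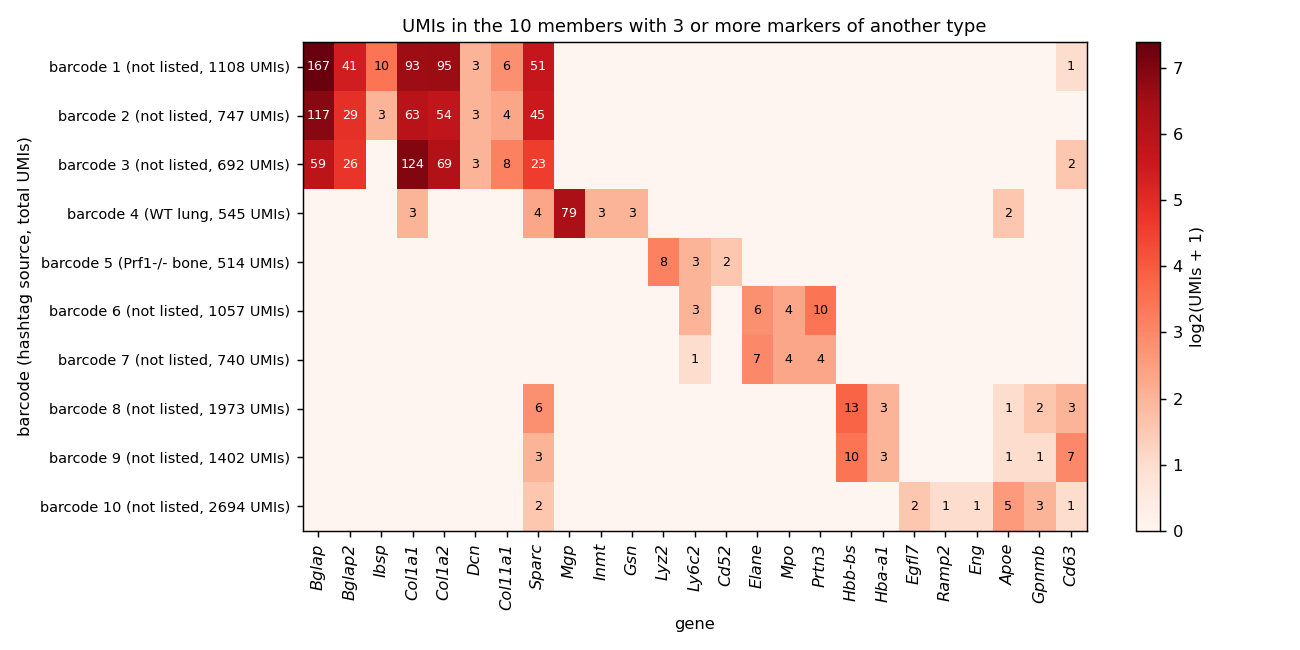
UMIs of 25 genes (columns) in the 10 members with at least 3 different markers of another cell type (each a horizontal band with its hashtag source and total UMIs); the number in each square is the UMI count and the colour its log2(UMIs + 1). Barcodes 1 to 3 share Bglap, Col1a1 and Col1a2, barcode 4 has 79 UMIs of Mgp, barcodes 6 and 7 share Elane, Mpo and Prtn3, and Apoe, Gpnmb and Cd63, the last columns, appear mainly in barcodes 8 to 10.

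Summed over all members, these 10 barcodes held most UMIs of the osteoblast, fibroblast, macrophage, neutrophil and erythroid lists. The osteoblast list stood at 1082 CPM in members and 8.74 CPM in melanoma-rich barcodes, a ratio of 124 (107 to 144), and 3 barcodes held 98.9% of its UMIs. Of its genes 3 of 3 compared were called higher, and of the fibroblast list 4 of 6, Col1a1, Col1a2, Col5a1 and Dcn, beside 5.36% of all genes. Without the 10 barcodes the osteoblast list stood at 4.85 CPM, a ratio of 0.55 (0.067 to 2.02). The fibroblast list stood at 1332 CPM in members and 125 CPM in melanoma-rich barcodes, a ratio of 10.6 (9.74 to 11.6), and at 96.9 CPM without them (0.77, 0.55 to 1.06). Macrophage and monocyte markers were at 56.6 CPM in members and 7.32 CPM in melanoma-rich barcodes, neutrophil markers at 51.9 CPM in members and 4.98 CPM in melanoma-rich barcodes, and erythroid markers at 80.2 CPM in members and 10.6 CPM in melanoma-rich barcodes. Without the 10 barcodes the members stood at 12.1, 2.42 and 7.27 CPM for these lists. The 10 were taken out of the members only, and the 73 melanoma-rich barcodes past the same marker limit stayed in. Since the 10 were picked by these same markers, a fall of the members' levels was fixed in part by the removal. The cancer-associated fibroblast list was spread more widely, with at least 1 UMI in 39 members. It stood at 160 CPM in members and 72.7 CPM in melanoma-rich barcodes, a ratio of 2.20 (1.71 to 2.80). Of its 4 compared genes 3 were called higher, beside 5.36% of all genes. At 500 to 2000 UMIs its ratio was 2.89 (2.12 to 3.86), and without the 10 barcodes 1.37 (0.98 to 1.86).

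Markers of most immune lists were scarce in the members as a whole, and the vascular level was not above that of the melanoma-rich barcodes. B-cell, mast-cell and platelet markers had no UMI in any member, which allows up to 3 UMIs or 7.07 CPM for each list. T-cell and natural killer markers had 1 UMI, and Prf1 had 0 UMIs in members and in melanoma-rich barcodes, so these counts do not check the genotype of the hosts. The pan-immune list stood at 389 CPM in members and 247 CPM in melanoma-rich barcodes (ratio 1.58, 1.34 to 1.84), but 148 of its 165 UMIs were of Arhgdib, which was found in 98 members and reached 238 CPM in melanoma-rich barcodes. Of the 2 genes of the list compared 1 was higher, Fcer1g, an Fc receptor subunit gene, with 7 UMIs in 5 members (3.17, 1.26 to 6.66). The defining leukocyte gene Ptprc, which encodes CD45, had 1 UMI in all members, in barcode 6. Without the 10 barcodes the pan-immune list stood at 361 CPM. Endothelial markers stood at 137 CPM in members and 165 CPM in melanoma-rich barcodes (ratio 0.83, 0.63 to 1.07). At 500 to 2000 UMIs their ratio was 0.67 (0.44 to 0.99). The lymphatic list had a ratio of 0.46 (0.20 to 0.91), and of 0.20 (0.024 to 0.73) at 500 to 2000 UMIs. Of the 4 endothelial genes compared 1 was lower, Vwf with 1 UMI, and none higher, and 11 of the 16 markers were at 0. Of all compared genes 5.36% were called higher and 3.82% lower.

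Shares of barcodes differed among the lists. A fibroblast marker was found in 14.0% of members (10.1 to 18.7%) and 20.6% of melanoma-rich barcodes, and at 500 UMIs per barcode in 5.54% of members and 5.63% of melanoma-rich barcodes. An endothelial marker was found in 17.3% of members and 29.8% of melanoma-rich barcodes, and at 500 UMIs in 5.90% of members (3.41 to 9.41%) and 8.10% of melanoma-rich barcodes. At equal depth neither of these shares of members lay above that of melanoma-rich barcodes, and the members' fibroblast share includes barcodes 1 to 4. Other lists stood higher in members at 500 UMIs. Among them were the pan-immune list, at 15.9% of members (11.7 to 20.8%) and 10.9% of melanoma-rich barcodes, and the cancer-associated fibroblast list, at 6.64% (3.98 to 10.3%) and 3.68%. The osteoblast list stood at 1.48% of members (0.404 to 3.74%) and 0.320% of melanoma-rich barcodes. Pericyte and smooth-muscle, chondrocyte, osteoclast, progenitor, mesothelial, skeletal-muscle, lymphatic and airway lists lay between 4.71 and 21.2 CPM in members and between 10.1 and 41.0 CPM in melanoma-rich barcodes. Of the adipocyte list only Car3 had UMIs, 7 in barcodes 1 to 3. Dendritic markers stood at 58.9 CPM in members and 43.1 CPM in melanoma-rich barcodes, of which Fscn1, an actin-bundling gene of many cells, held 22 of 25 UMIs in members.

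**Figure D2:**
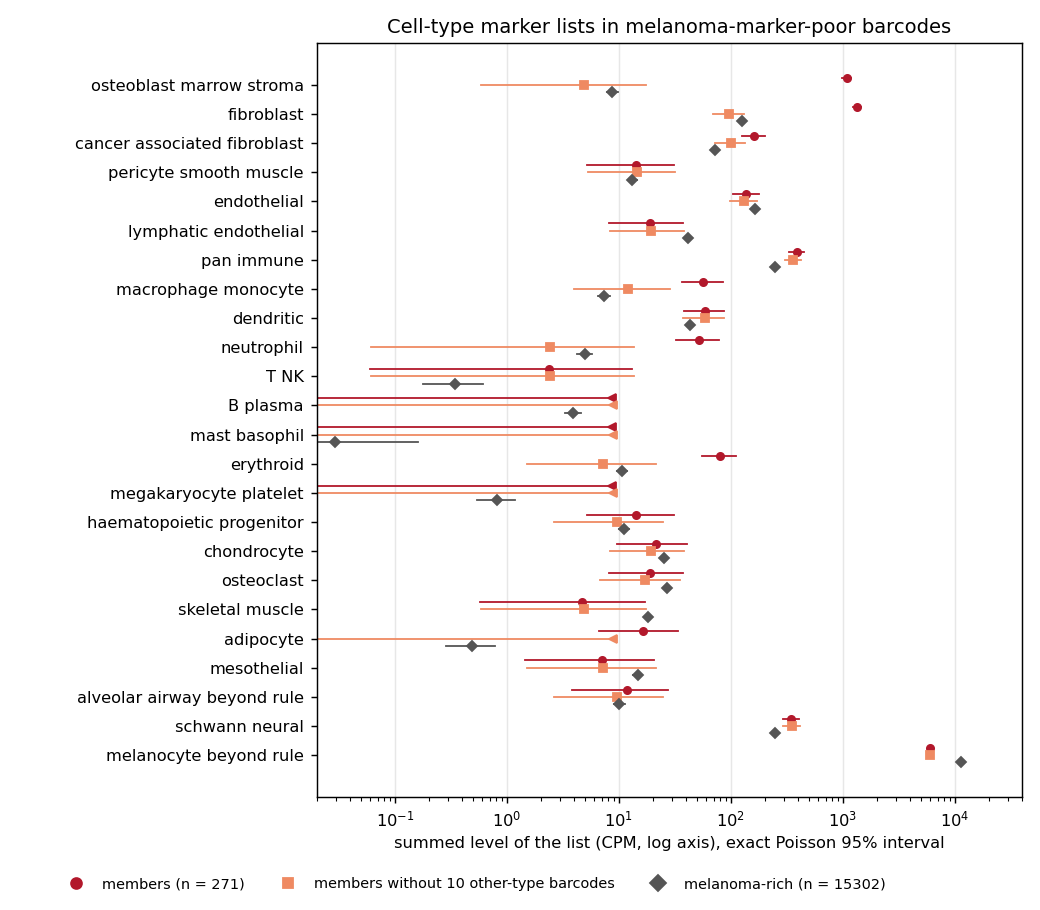
Summed level of each cell-type marker list in CPM (log axis) in all 271 members (circles), in members without the 10 barcodes that carry markers of another type (squares) and in the 15302 melanoma-rich barcodes (diamonds); bars are exact Poisson 95% intervals and left-pointing triangles mark the upper limit of lists at 0. Without the 10 barcodes the osteoblast list stands at 4.85 CPM, the fibroblast list at 96.9 CPM and the melanocyte list at 6021 CPM.

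Across all genes, 861 of 9382 compared (9.18%) were called, 503 higher (5.36%) and 358 lower (3.82%). The lower ones include the 4 rule genes, and 354 were lower without them. Without the 10 barcodes of other types 480 were higher (5.13%) and 347 lower (3.71%), and 440 and 329 of the genes were shared. Among barcodes with 500 to 2000 UMIs 463 were higher (4.94%) and 293 lower (3.12%), of which 266 and 198 were shared.

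Among the genes named by ratio the highest were Bglap, Bglap2, Col1a1 and Col1a2, followed by Col11a1, a fibrillar collagen gene with all its UMIs in barcodes 1 to 3, at 36.6, Mgp at 29.2 and Hbb-bs at 12.7. Outside these barcodes the named higher genes were fewer in kind. Nes, which encodes the intermediate filament nestin of neural-crest and progenitor cells, stood at 49.5 CPM in members (21 UMIs in 19 barcodes) and 9.06 CPM in melanoma-rich barcodes, a ratio of 5.46 (3.33 to 8.50). Rgs16, a regulator of G-protein signalling, was at 6.18 (3.47 to 10.3), and Tmem40, a membrane protein gene, at 4.63 (2.55 to 7.77). Akap12, a kinase-scaffold gene, had a ratio of 6.03 (4.07 to 8.64), but was not called at 500 to 2000 UMIs (1.63, 0.437 to 4.3). Serpinf1, which encodes the secreted factor PEDF, had a ratio of 6.0 (3.37 to 9.97) that was not called without the 10 barcodes.

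The gene with the lowest ratio was Cck, the cholecystokinin hormone gene, at 28.3 CPM in members and 653 CPM in melanoma-rich barcodes (0.043, 0.022 to 0.076), where its UMIs lay in 2128 of 15302 barcodes. Mgll, a lipase of monoacylglycerols, had 155.6 CPM in members and 1011 CPM in melanoma-rich barcodes, a ratio of 0.15 (0.12 to 0.20). Other genes named by the same rule were Hs3st1, Cd72, Gsta2, Mir670hg, Pde10a and Paqr6, with ratios between 0.063 and 0.18 and 1 to 5 UMIs in members, so that their intervals reached from 0.0016 to 0.51. The 15 named lower genes include the 4 rule genes, whose lower call was fixed by the rule in every setting. The others were called lower also at 500 to 2000 UMIs and without the 10 barcodes.

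Most compared genes of the ATF4 list were higher. The 14 genes of the list summed to 2119 CPM in members and 942 CPM in melanoma-rich barcodes, a ratio of 2.25 (2.10 to 2.40). Of the 13 compared 10 were higher and none lower, beside 5.36% and 3.82% of all genes. Their median log2 ratio was 1.39 against 0.04 over all genes. Among barcodes with 500 to 2000 UMIs the ratio was 2.08 (1.90 to 2.27) with 9 higher. At least 1 UMI of the list was found in 49.1% of members (43.0 to 55.2%) and 34.1% of melanoma-rich barcodes at 500 UMIs each, and without thinning in 75.6% of members and 72.6% of melanoma-rich barcodes. Epithelial barcodes stood at 48.4% (35.5 to 61.4%) at 500 UMIs and at 1092 CPM, so the share of members was not above theirs.

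Among its regulators, Atf4 itself had 130 UMIs in 88 members, with 306 CPM in members and 145 CPM in melanoma-rich barcodes (ratio 2.12, 1.77 to 2.52). Ddit3, encoding the transcription factor CHOP, was found in 81 members, 19 UMIs in the highest, and stood at 453 CPM in members and 184 CPM in melanoma-rich barcodes (2.46, 2.12 to 2.84). Of its 192 UMIs 126 lay in 1 cluster of 76 members described below, and the other members stood at 213 CPM. Atf5, a related factor, had a ratio of 3.21 (2.42 to 4.19), and Cebpb, a C/EBP factor, 4.29 (2.47 to 6.97). Nupr1, a stress-induced chromatin protein gene, stood at 408 CPM in members (173 UMIs in 85 barcodes, at most 9 in 1) and 119.9 CPM in melanoma-rich barcodes, a ratio of 3.40 (2.91 to 3.96). Trib3, a pseudokinase gene induced by CHOP, was at 3.29 (2.29 to 4.60), and Ddit4, an inhibitor of mTORC1, at 2.87 (1.22 to 5.75).

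The metabolic genes of the pathway differed among themselves. Asns, asparagine synthetase, stood at 245 CPM in members and 122 CPM in melanoma-rich barcodes (2.01, 1.64 to 2.44), and Chac1, which degrades glutathione, at 47.1 CPM in members and 13.4 CPM in melanoma-rich barcodes (3.53, 2.13 to 5.51). Slc7a11, the cystine importer whose promoter holds the motif on each strand, had 10 UMIs in 10 members and a ratio of 6.08 (2.85 to 11.5). It was not called at 500 to 2000 UMIs, where its ratio was 2.52. The serine-synthesis genes Phgdh and Psat1 were not called, with ratios of 1.35 (1.13 to 1.60) and 1.25 (0.74 to 1.99), nor was Sesn2 at 0.99 (0.27 to 2.56). Vldlr had no UMI in members.

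Genes of the p53 and cell-death list were higher in part. The list summed to 1653 CPM in members and 931 CPM in melanoma-rich barcodes, a ratio of 1.77 (1.64 to 1.91), with 5 of 12 compared genes higher and none lower, beside 5.36% and 3.82% of all genes, and a median log2 ratio of 0.47 against 0.04 over all genes. Cdkn1a, which encodes the cell-cycle inhibitor p21, had 276 UMIs in 100 members, with 27, 18, 11 and 10 in the highest 4. It stood at 651 CPM in members and 160.5 CPM in melanoma-rich barcodes (4.05, 3.58 to 4.58), and at 500 UMIs it was found in 21.4% of members (16.7 to 26.8%) and 7.20% of melanoma-rich barcodes. Bbc3, which encodes the pro-apoptotic protein PUMA, had 30 UMIs in 28 members and a ratio of 4.27 (2.85 to 6.17). Gadd45a (3.52, 1.95 to 5.89), Trp53inp1 (2.72, 1.63 to 4.29) and Phlda3 (1.65, 1.31 to 2.06) were also higher, and of these only Phlda3 was called at 500 to 2000 UMIs. Mdm2, the p53 ubiquitin ligase, had a ratio of 1.41 (0.92 to 2.08), and Bax, an effector of apoptosis, 1.02 (0.88 to 1.17).

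**Figure D3:**
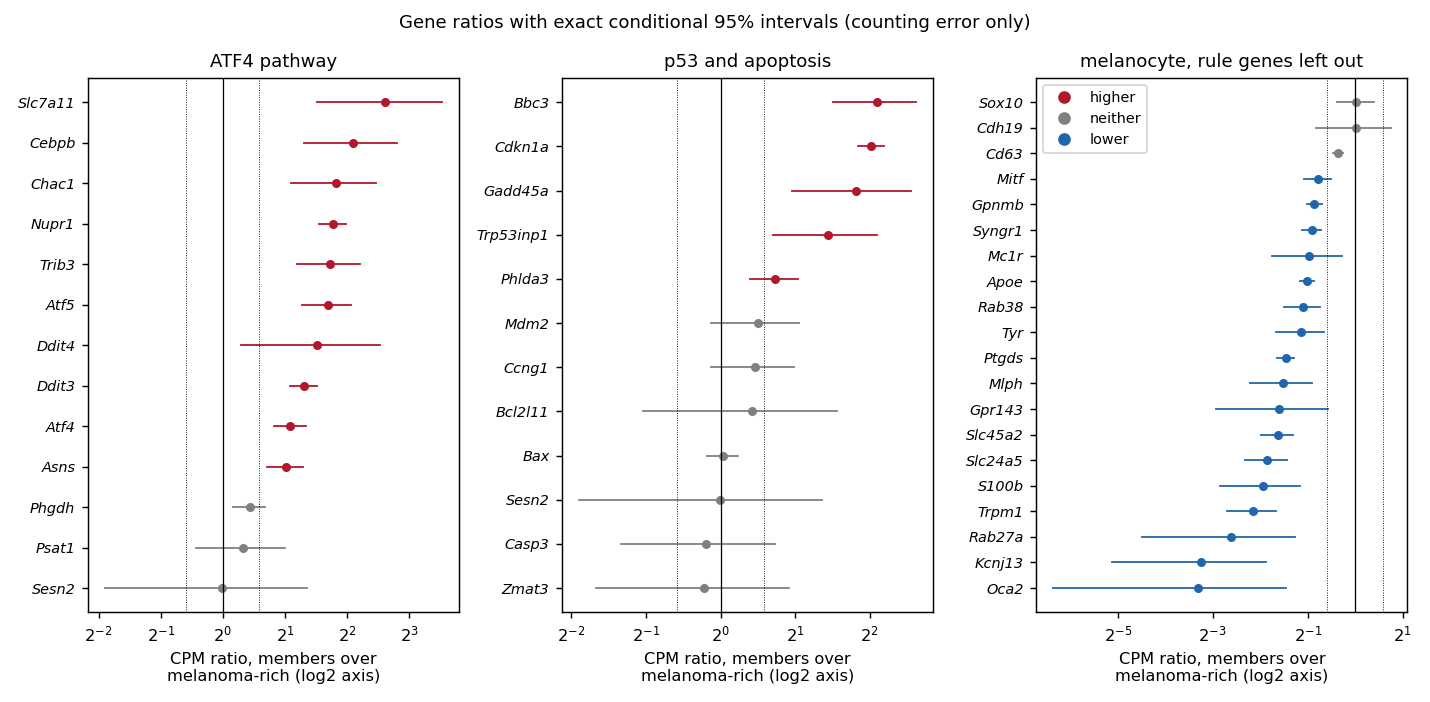
Ratio of CPM, members over melanoma-rich barcodes, on a log2 axis for each compared gene of the ATF4 list, the p53 and apoptosis list and the melanocyte list without the rule genes; bars are exact conditional 95% intervals, dotted lines mark 1.5-fold either way, and colour gives the call. In the ATF4 panel 10 of 13 genes are higher, in the p53 panel 5 of 12, and in the melanocyte panel 17 of 20 are lower.

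The small heat-shock protein gene Hspb1 was higher as well, as were 2 of 4 compared nuclear RNAs, beside 5.36% of all genes. Hspb1 stood at 1575 CPM in members (668 UMIs in 131 barcodes, 70 in the highest) and 439.6 CPM in melanoma-rich barcodes, a ratio of 3.58 (3.31 to 3.87). At 500 UMIs it was found in 33.6% of members (28.0 to 39.5%) and 16.5% of melanoma-rich barcodes. Malat1, a long noncoding RNA that stays in the nucleus, reached 10660 CPM in members and 6015 CPM in melanoma-rich barcodes (1.77, 1.72 to 1.83), and Neat1, the scaffold of paraspeckles, 349 CPM in members and 226 CPM in melanoma-rich barcodes (1.54, 1.30 to 1.81). At 500 UMIs Malat1 was found in 77.5% of members (72.0 to 82.3%) and 77.9% of melanoma-rich barcodes, so the share of barcodes did not differ beyond its interval. The part of RNA quality in the stress and pigment values was not tested.

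Levels changed along the share of the 4 rule genes, and for the ATF4 list, Cdkn1a and Hspb1 the intervals just inside and just outside the limit overlapped. The ATF4 list stood at 2373 CPM in barcodes with no rule melanoma UMI, at 1514 CPM between 0.15 and 0.2%, at 1574 CPM between 0.2 and 0.25% just outside the rule, and at 894 CPM between 1 and 2%. It was highest between 0.1 and 0.15%, at 2691 CPM. Cdkn1a stood at 949, 503, 400.3 and 146 CPM in the same 4 ranges, and Hspb1 at 2348, 1262, 1192 and 372 CPM. The order of Cdkn1a was not steady, with 490.4 CPM above 0 and up to 0.1%, 838 CPM between 0.1 and 0.15% and 224 CPM above 2%. The melanocyte list without the rule genes ran the other way, with 4745, 6050, 6690 and 12635 CPM. Vim stood at 1899 CPM just inside the limit and 2995 CPM just outside it. Since the rule cut the barcodes on pigment genes, the order of the melanocyte list along this axis is a description of genes that share a source.

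**Figure D4:**
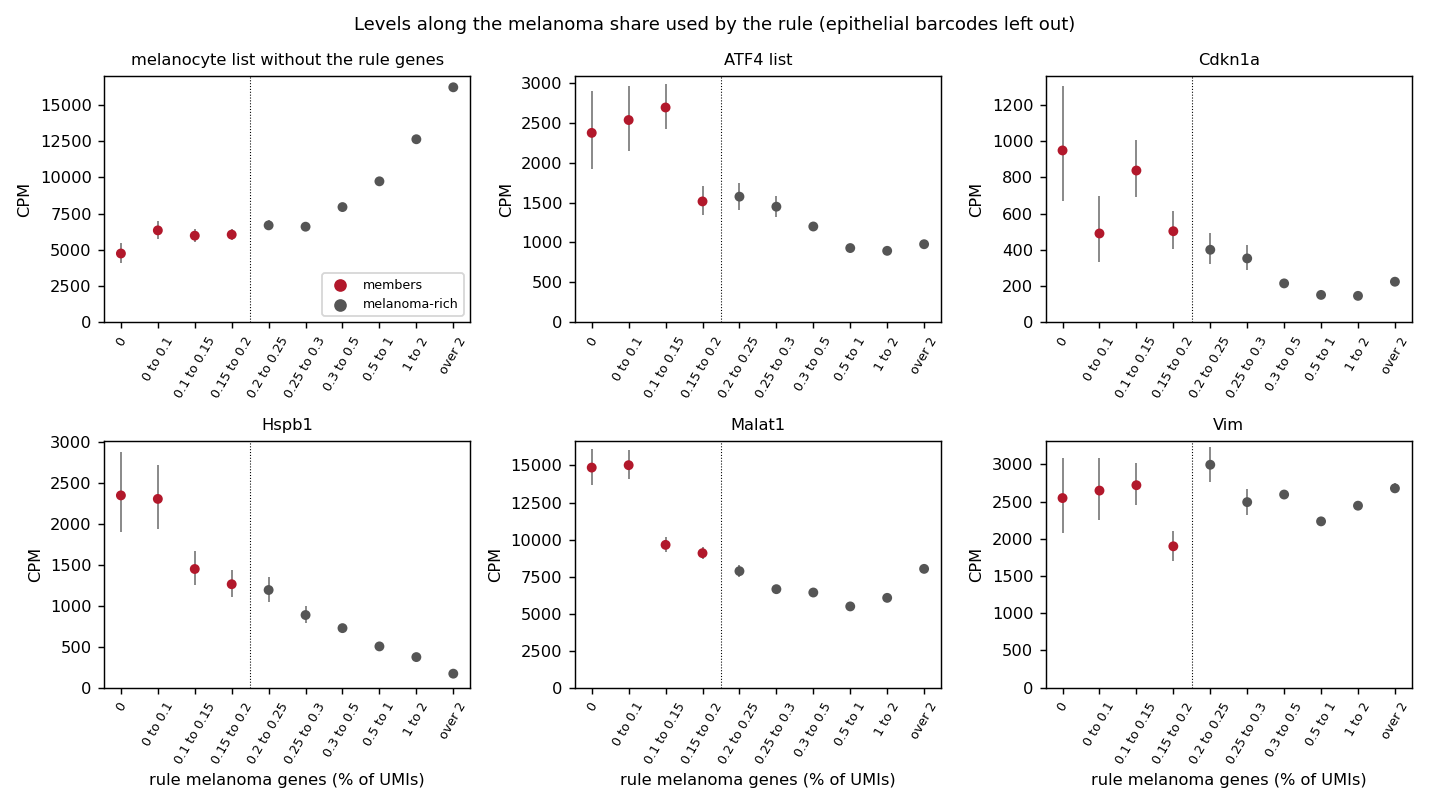
Levels in CPM of 2 gene lists and 4 genes (6 panels) in 10 ranges of the share of UMIs from Pmel, Mlana, Dct and Tyrp1, with epithelial barcodes left out; points are sums over the barcodes of a range, bars are exact Poisson 95% intervals, and the dotted line marks the 0.2% limit between members on the left and melanoma-rich barcodes on the right. The ATF4 list, Cdkn1a, Hspb1 and Malat1 are highest at low shares, the melanocyte list is highest above 2%, at 16222 CPM, and Vim shows no such order.

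Single genes of a dedifferentiated melanoma state were higher, while the list as a sum was near the melanoma-rich level (ratio 1.07, 1.02 to 1.13). Of 12 compared, 4 were higher and none lower, beside 5.36% and 3.82% of all genes, with a median log2 ratio of 0.28 against 0.04 over all genes. Beside Nes these were S100a6, a calcium-binding protein gene, at 415 CPM in members and 185 CPM in melanoma-rich barcodes (2.25, 1.92 to 2.61), Cdh2, which encodes N-cadherin (1.98, 1.25 to 2.98), and Sox4, a transcription factor gene (1.51, 1.20 to 1.88). Of S100a6, 143 UMIs lay in 1 cluster of 76 members described below. The other members stood at 107 CPM, below the melanoma-rich level, though the clusters were made from these same counts. Axl, a receptor kinase gene of that state, had 4 UMIs in members and was not called, and Egfr, Fosl1, Ngfr, Tnc and Zeb1 had no UMI in members. Vim, the vimentin gene, did not differ by the call limit, at 2332 CPM in members and 2397 CPM in melanoma-rich barcodes (0.97, 0.91 to 1.04). Of the Schwann and neural list Mbp (2.53, 1.78 to 3.50) and Ncam1 (2.22, 1.14 to 3.92) were higher among 6 compared, beside 5.36% of all genes.

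Interferon and antigen-presentation genes were close to the melanoma-rich level. The interferon list summed to 3124 CPM in members and 3612 CPM in melanoma-rich barcodes, a ratio of 0.86 (0.82 to 0.91), with 1 of 25 compared genes higher and 3 lower and a median log2 ratio of -0.27 against 0.04 over all genes. The count of higher genes is near the 5.36% of all genes called higher, and 3.82% of all genes were called lower. The 1 higher gene was the chemokine gene Cxcl10, at 504 CPM in members (76 barcodes) and 268 CPM in melanoma-rich barcodes (1.88, 1.63 to 2.15). Ifit1 (0.35, 0.17 to 0.64), Ifit3 (0.37, 0.22 to 0.58) and Rsad2 (0.57, 0.34 to 0.89), which restrict viral RNA and replication, were lower. For MHC class I the sums were 3324 CPM in members and 3759 CPM in melanoma-rich barcodes (0.88, 0.84 to 0.93). Of 15 compared genes only Pdia3, a chaperone of the loading complex, was lower (0.65, 0.54 to 0.77), beside 3.82% of all genes. At 500 to 2000 UMIs 2 class I genes were higher and 3 lower, with a list ratio of 0.86 (0.80 to 0.93). Of the interferon list 1 was higher and 4 lower in that range (0.90, 0.83 to 0.96). Beside these, 4.94% of all genes were higher there and 3.12% lower. H2-K1 and B2m, the heavy and light chain genes, had ratios of 1.13 (0.94 to 1.34) and 0.97 (0.87 to 1.08). MHC class II genes stood at 63.7 CPM in members and 48.3 CPM in melanoma-rich barcodes, with 0 of 3 called.

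The members were not uniform. Clustering of their counts gave 4 clusters of 90, 76, 69 and 36 barcodes, numbered 0 to 3 and given no cell-type name, since the counts that made them also describe them. Cluster 0 was led by Bglap, Col1a1, Col1a2, Bglap2 and Mgp, all from barcodes 1 to 4 and 2 more with 1 UMI of Mgp each, and then by genes that included Ccl5 and Egr1. It had the highest level of mitochondrially encoded genes, 32322 CPM (31304 to 33364), against 18114 CPM in the other members.

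Cluster 1 was led by Hbb-bs, with all 23 UMIs in barcodes 8 and 9, and then by genes that included Ahnak, S100a6, Emp1, Hspb1 and Ddit3. Its ATF4 list reached 3913 CPM (3559 to 4292), against 1454 CPM in the other members, and Hspb1 stood at 3887 CPM against 717 CPM. In the same comparison S100a6 stood at 1246 CPM against 107 CPM, and Ddit3 at 1098 CPM against 213 CPM. Cluster 2 was led by the mitotic and replication genes Ccnb2, Uhrf1, Mki67 and Racgap1, with the G2 and M list at 3977 CPM (3671 to 4302) against 934 CPM in the other members, and it was the deepest, at a median of 2273 UMIs. Cluster 3 was led by small housekeeping genes such as Mrpl42 and Rps26, and was the shallowest, at a median of 819 UMIs. Nuclear RNAs were nearly missing from it, with 9 UMIs of the list or 259 CPM (118.5 to 492) against 12078 CPM in the other members, and 52.8% of its barcodes had at least 3 melanocyte genes, against 83.3, 84.2 and 87.0% in clusters 0, 1 and 2.

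Hashtags gave a source for few members. Of the 271, 46 (17.0%, 12.7 to 22%) were listed in the hashtag matrix, against 26.2% of melanoma-rich barcodes and 62.9% of epithelial ones. Listing rose with depth in melanoma-rich barcodes, with 9.76% at 500 to 1000 UMIs and 30.1% at 2000 to 3000 UMIs, and members stood at 15.4% and 22.4% in these ranges. Of the listed members 11 were called to Prf1-/- bone, 15 to Prf1-/- lung and 12 to WT lung. Another 7 were called to more than 1 source (15.2% of those listed, 6.34 to 28.9%, against 8.65% of listed melanoma-rich barcodes). In 1 no hashtag passed the limit of the caller, though each listed member had at least 506 hashtag counts.

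Members made up 2.42% of barcodes called to Prf1-/- bone (11 of 455, 1.21 to 4.28%), 0.865% of those called to Prf1-/- lung (15 of 1734, 0.485 to 1.42%) and 0.789% of those called to WT lung (12 of 1521, 0.408 to 1.37%). At the melanoma limit of 0.2% the intervals of bone and of each lung overlap, while at a limit of 0.5% they do not. No test of the difference was made, since each source is 1 hashtag group. Bone and lung also differed in melanocyte genes outside the members: the list stood at 9760 CPM in melanoma-rich barcodes of Prf1-/- bone, 11119 CPM in those of Prf1-/- lung and 11811 CPM in those of WT lung. The part of that difference in the share of members was not tested.

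The melanocyte list was low in members of every source. It stood at 4724 CPM (3840 to 5752) in Prf1-/- bone members, 5924 CPM (5039 to 6919) in Prf1-/- lung members and 6790 CPM (5719 to 8003) in WT lung members, 0.48, 0.53 and 0.57 times the melanoma-rich level of the same source. The ATF4 list was above the melanoma-rich level by its interval in Prf1-/- bone members, at 1575 CPM (ratio 1.99, 1.36 to 2.81), but not in those of Prf1-/- lung (1192 CPM, 1.34, 0.91 to 1.89) or WT lung (1195 CPM, 1.34, 0.86 to 1.97). It was highest in the 225 members not listed, at 2324 CPM (2.38, 2.22 to 2.56), so most of the ATF4 result rests on barcodes with no source. Ddit3 had 181 of its 192 UMIs there, and Nupr1 153 of 173.

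Cdkn1a was above the melanoma-rich level by its interval in members of both lungs, with ratios of 6.93 (4.74 to 9.82) in Prf1-/- lung and 4.58 (2.55 to 7.61) in WT lung. In Prf1-/- bone, with 4 UMIs in members, the interval included 1 (3.35, 0.89 to 8.92). Hspb1 had ratios of 4.57 (3.20 to 6.35) in Prf1-/- bone, 1.51 (0.86 to 2.46) in Prf1-/- lung and 5.83 (4.38 to 7.60) in WT lung. Malat1 was above the melanoma-rich level in every source, with ratios of 1.66 (1.42 to 1.94) in Prf1-/- bone, 2.28 (2.07 to 2.52) in Prf1-/- lung and 2.50 (2.24 to 2.79) in WT lung.

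Prf1-/- lung members were compared with WT lung members, which differ in host genotype. Of 820 genes with at least 10 UMIs 24 were higher (2.93%) and 34 lower (4.15%). Lmna, which encodes the nuclear lamins A and C, stood at 1006 CPM in Prf1-/- lung members (27 UMIs in 9 barcodes) and 143 CPM in WT lung members (3 UMIs), a ratio of 7.01 (2.16 to 36.1), while melanoma-rich barcodes stood at 409.5 CPM in Prf1-/- lung and 378 CPM in WT lung. Vim stood at 4098 CPM in Prf1-/- lung members and 1674 CPM in WT lung members (2.45, 1.66 to 3.69). The ferritin gene Fth1 was at 11773 CPM in Prf1-/- lung members and 6216 CPM in WT lung members (1.89, 1.54 to 2.34), with 48.4% of the Prf1-/- lung UMIs in 1 barcode, and Ccnd1, cyclin D1, was at 633 CPM in Prf1-/- lung members, 88.2% of it in 1 barcode, and 95.6 CPM in WT lung members.

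Iigp1 and Psmb8 were among the lower ones. Iigp1, an interferon-induced GTPase gene, had 1 UMI in Prf1-/- lung members and 13 UMIs in 5 WT lung members (ratio 0.060, 0.0014 to 0.40), and Psmb8, an immunoproteasome subunit gene, had 1 UMI in Prf1-/- lung members and 9 in WT lung members (0.087, 0.0020 to 0.62). In melanoma-rich barcodes Iigp1 stood at 51.9 CPM in Prf1-/- lung and 107 CPM in WT lung, and Psmb8 at 75.8 CPM in Prf1-/- lung and 145 CPM in WT lung. The MHC class I list stood at 2980 CPM (2363 to 3709) in Prf1-/- lung members and 5547 CPM (4583 to 6653) in WT lung members, and the interferon list at 2422 CPM (1869 to 3086) in Prf1-/- lung members and 4781 CPM (3890 to 5816) in WT lung members. In melanoma-rich barcodes the class I list stood at 3971 CPM in Prf1-/- lung and 4472 CPM in WT lung. There the interferon list stood at 3347 CPM in Prf1-/- lung and 4370 CPM in WT lung. Cdkn1a was at 1229 CPM (846 to 1727) in Prf1-/- lung members and 717 CPM (401 to 1183) in WT lung members, and Mgp was lower only because 79 UMIs lay in barcode 4.

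Prf1-/- bone members were compared with Prf1-/- lung members, which differ in site. Of 819 genes 31 were higher (3.79%) and 27 lower (3.3%). Hspb1 stood at 1813 CPM in Prf1-/- bone members (38 UMIs in 4 barcodes) and 596 CPM in Prf1-/- lung members (16 UMIs in 7 barcodes), a ratio of 3.04 (1.66 to 5.84). Npm1, a nucleolar gene, was at 3102 CPM in Prf1-/- bone members and 1341 CPM in Prf1-/- lung members (2.31, 1.52 to 3.58), and Cdk4, a cell-cycle kinase gene, had 11 UMIs in Prf1-/- bone members and 2 in Prf1-/- lung members (7.05, 1.54 to 65.4). Cdkn1a was lower, with 191 CPM (4 UMIs in 2 barcodes) in Prf1-/- bone members and 1229 CPM (33 UMIs in 7 barcodes) in Prf1-/- lung members (0.16, 0.040 to 0.44). Vim (0.28, 0.17 to 0.44), Lmna (0.24, 0.071 to 0.62), S100a6 (0.12, 0.014 to 0.50) and Bax (0.13, 0.015 to 0.56) were also lower.

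Some of these genes also differed between melanoma-rich barcodes of these sources and others less so. Cdkn1a stood at 57.0 CPM in Prf1-/- bone and 177 CPM in Prf1-/- lung, Vim at 1487 CPM in Prf1-/- bone and 2775 CPM in Prf1-/- lung, and S100a6 at 47.7 CPM in Prf1-/- bone and 202 CPM in Prf1-/- lung. The ratios, Prf1-/- bone over Prf1-/- lung, were 0.67 for Lmna, 0.75 for Bax, 1.07 for Cdk4 and 1.16 for Npm1. Hspb1 stood at 397 CPM in those of Prf1-/- bone and 394 CPM in those of Prf1-/- lung. Whether the difference between sites was other in members than in melanoma-rich barcodes was not tested.

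Against WT lung members, which differ in site and genotype, 26 of 720 genes were higher in Prf1-/- bone members (3.61%) and 27 lower (3.75%). Akap12 had 11 UMIs in 4 Prf1-/- bone members and none in WT lung members, where the floor of 3 UMIs equals 143 CPM. Malat1 stood at 8017 CPM (6851 to 9325) in Prf1-/- bone members and 15779 CPM (14122 to 17577) in WT lung members, a ratio of 0.51 (0.42 to 0.61). The comparisons of Prf1-/- lung members share their barcodes, and the 3 groups held only 20955 (Prf1-/- bone), 26842 (Prf1-/- lung) and 20914 UMIs (WT lung), so that single barcodes weigh heavily.

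**Figure D5:**
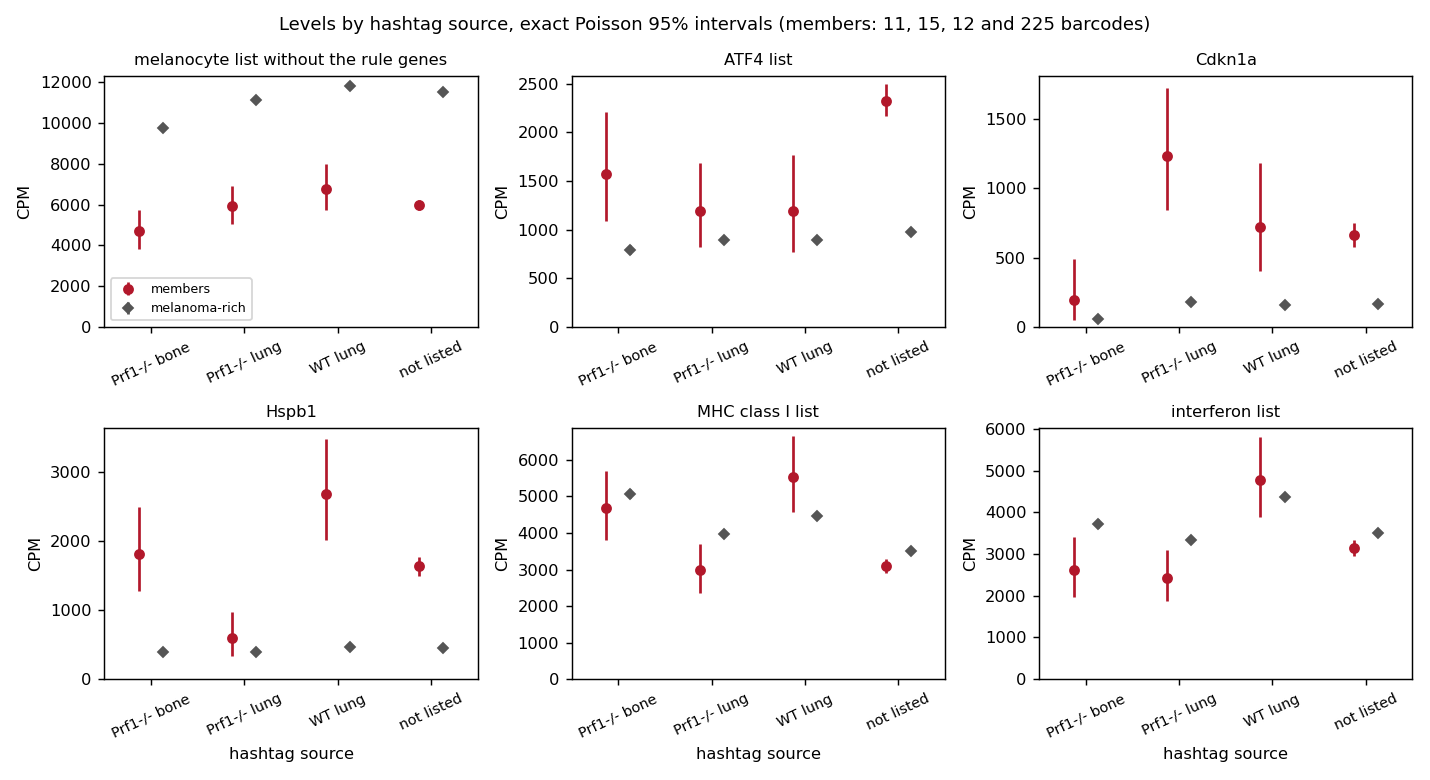
Levels in CPM of the melanocyte list without the rule genes, the ATF4 list, Cdkn1a, Hspb1, the MHC class I list and the interferon list in members (circles) and melanoma-rich barcodes (diamonds) called to Prf1-/- bone, Prf1-/- lung or WT lung or not listed in the hashtag matrix; bars are exact Poisson 95% intervals. Members lie below melanoma-rich barcodes in the melanocyte panel for every source, and their ATF4 level is highest, at 2324 CPM, among the 225 members not listed.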

How the data were processed

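The deposited values are UMI counts per gene and barcode, and counts of 3 hashtags per barcode, as the authors deposited them. Per the submitters' processing notes they used Cell Ranger 6.1.2 and Seurat 4.3.0 with mm10, while the file header gives Cell Ranger 6.0.0. The RNA matrix held 15961 barcodes and 32285 genes and the hashtag matrix 6208 barcodes, with 4204 in both. Barcodes were joined by their sequence, and those not listed in the hashtag matrix were given no source.

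Counts of genes that share a symbol were added. Hashtags were called with HTODemux (Seurat 5.3.0, R 4.3.3, centred log ratio, quantile 0.99). Such calls miss doublets of 1 source, and Scrublet (scanpy 1.11.5) marked 0 of 15635 barcodes and so had not worked. Counts were summed over the barcodes of a group and divided by its total (CPM). Shares have exact Clopper-Pearson, levels exact Poisson and ratios exact conditional binomial 95% intervals (scipy 1.17.1), which cover counting error only, and molecules of 1 barcode are not independent. A count of 0 is given a floor of 3 UMIs, and log2 ratios add 1 CPM to each side. Members were clustered with Leiden (leidenalg 0.10.2) on 2000 variable genes, without the rule genes, with 20 components, 15 neighbours and resolution 0.5. The step that calls genes was tested on simulated data.

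The members, the 38 gene lists (24 of cell types, 14 of programmes) and the tests were chosen with earlier results of these data known. Named genes are those with the most extreme ratios, up to 15 a side, provided that their mean reached 20 CPM, their UMIs 50 and their whole interval passed 1.5-fold. Mitochondrial and ribosomal protein genes and those without a name were passed over. To these come the rule genes, Prf1, Col1a1, up to 4 abundant and 4 extreme genes of each list, 10 genes that lead each cluster, and 8 a side between sources with at least 10 UMIs. Further list genes were named after their values were seen, as were the genes in the grid of 10 barcodes. Alternatives covered the melanoma, depth and mitochondrial limits, the total used for scaling, filters on low genes, the hashtag caller, single barcodes and the cluster resolution. A cell metadata table that the labels mention was not used here.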

Additional observations from a re-analysis of the deposited data

How the results depend on the processing

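No paired analysis was possible because each source is 1 hashtag group in 1 pooled library, with no replicates to pair or leave out. The melanoma limit of 0.2% set the size of the group: 82 members at 0.1% and 1617 at 0.5%. At these 2 limits members were 0.66% and 16.0% of Prf1-/- bone barcodes, 0.23% and 6.63% of Prf1-/- lung barcodes and 0.26% and 7.76% of WT lung barcodes. At 0.5% the interval of Prf1-/- bone (12.8 to 19.7%) lay above those of Prf1-/- lung (5.51 to 7.91%) and WT lung (6.46 to 9.22%). At 0.1% the 3 intervals overlapped. Genes called lower numbered 204 at 0.1% and genes called higher 297 at 0.5%, where 302 were lower, so that higher calls were 49.6% of all calls instead of 58.4%. Requiring a mean of 20 CPM left 330 higher, by its construction. Leaving out each gene's top barcode gave 257 higher and 613 lower, 29.5% higher, with the median of all genes at -0.11 on the log2 scale, since 1 of 271 barcodes weighs more than 1 of 15302; 257 and 356 of these genes were also among those in the report. Log2 ratios of summed lists, members over melanoma-rich barcodes, moved as follows. Melanocyte genes, at -0.94, stood at -0.65 at 0.5% and -1.06 at 500 to 2000 UMIs. Osteoblast markers, at 6.80, stood at 8.86 at 0.1%, 3.89 at 0.5%, 6.0 at 1000 UMIs or more, 6.07 without the top barcode, 7.63 at 500 to 2000 UMIs and -0.74 without the 10 barcodes of other types. Fibroblast markers, at 3.40, stood at 5.38, 0.97, 2.27, 2.86, 4.32 and -0.36 under the same settings in the same order. Pan-immune markers, at 0.65, stood at 0.39 at 0.1%. ATF4 genes, at 1.17, stood at 1.38 at 0.1%, 0.58 at 0.5% and 1.05 at 500 to 2000 UMIs. The p53 list, at 0.83, stood at 0.24 at 0.5%. Leaving out the 10 barcodes, keeping only unlisted barcodes and, for lists, keeping barcodes of 500 to 2000 UMIs were added after the data were seen. The 10 were taken out of the members only, while 73 melanoma-rich barcodes past the same marker limit stayed in. The share of listed members and the endothelial level stayed within their intervals under the settings run for them, and resolutions of 0.3 and 1 gave 3 and 6 clusters. Other causes of these shifts were not tested. Depth limits all values by source, where 3 UMIs equal 112 to 143 CPM.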

Other observations

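Cell-cycle genes were near the melanoma-rich level in all members together, but their sums were above it among barcodes with 500 to 2000 UMIs. Of 23 S-phase genes compared none was called, with sums of 1212 CPM in members and 1265 CPM in melanoma-rich barcodes (ratio 0.96, 0.88 to 1.04). Of 24 G2 and M genes 2 were higher, Prc1 (1.59, 1.23 to 2.02) and Ccna2 (1.60, 1.02 to 2.38), and 2 lower, Plk1 (0.41, 0.15 to 0.90) and Nusap1 (0.48, 0.19 to 0.98), counts near the 5.36% and 3.82% of all genes called higher and lower. At 500 to 2000 UMIs the S-phase sum stood at 935 CPM in members and 678 CPM in melanoma-rich barcodes (1.38, 1.20 to 1.58). The G2 and M sum stood there at 1441 CPM in members and 1204 CPM in melanoma-rich barcodes (1.20, 1.07 to 1.33). In that range 3 S-phase genes were higher and none lower, and 2 G2 and M genes were higher and 1 lower. Beside these, 4.94% of all genes were higher and 3.12% lower. Of the immediate-early and heat-shock list 7 of 23 genes were higher and none lower, beside 5.36% and 3.82% of all genes, while the sum of the list had a ratio of 1.05 (1.02 to 1.09). The 7 included Atf3, a stress-induced transcription factor gene, at 160 CPM in members (43 barcodes) and 52.7 CPM in melanoma-rich barcodes (3.04, 2.35 to 3.87), and Nfkbia, an inhibitor of NF-kappaB (1.90, 1.22 to 2.82). Fos and Jun were not called, at 0.87 (0.76 to 0.99) and 1.01 (0.89 to 1.14). Hspa1b, an inducible heat-shock gene, had 13 UMIs in 3 members.

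Metabolic and structural lists differed less. Glycolysis and hypoxia genes had 0 of 17 called, with a ratio of 0.88 (0.85 to 0.91), and mitochondrially encoded genes had 1 of 13 lower, with 0.87 (0.85 to 0.89). Actin and cytoskeleton genes stood at 0.92 (0.89 to 0.95), with Actn4, an actin crosslinker (1.59, 1.24 to 2.00), and Tagln2 (1.55, 1.34 to 1.79) higher among 18. Few genes of these lists were thus called, where 5.36% of all genes were higher and 3.82% lower. Of 14 compared matrix genes outside the marker lists 3 were higher, Mgp, Bgn and Col5a2, and 1 lower, the protease gene Mmp14 (0.57, 0.30 to 0.97), beside 5.36% and 3.82% of all genes. None of the 3 higher ones stayed above a ratio of 1 without the 10 barcodes of other types. Sparc was abundant in both groups, at 1528 CPM in members and 1054 CPM in melanoma-rich barcodes (1.45, 1.34 to 1.57). The level of members includes 51, 45 and 23 UMIs in barcodes 1, 2 and 3.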
